A study of Mus musculus with 12 samples.

Results

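Receptors that steer T cells into tissues were followed in donor T cells taken from mouse livers after allogeneic transplantation: Ccr2, Ccr4, Ccr9, Cxcr3, Cxcr4, Cxcr5, Cxcr6, Cx3cr1 and Gpr15. These 9 genes were taken by name from the 25078 genes listed in the expression table, and all 9 were found and passed the filter on low counts in each fit. The RNA-Seq series compared donor T cells of 3 genotypes in 2 subsets, giving 6 groups of 2 libraries. WT donors were C57BL/6 mice. STAT3-/- donors carried Stat3 fl/fl with CD4-Cre, a transgene whose promoter is active in developing T cells, so that both CD4+ and CD8+ T cells lose floxed Stat3. STAT3-/-PD-1-/- donors carried the same 2 Stat3 components on a PD-1-/- background, a deletion carried by every cell of the donor. No group carried the PD-1 deletion alone, so the difference between STAT3-/-PD-1-/- and WT cells joined both deletions, and the difference from STAT3-/- cells held the STAT3 deletion constant. All recipients were lethally irradiated WT BALB/c mice given donor T cells together with T cell-depleted marrow from WT C57BL/6 mice, and liver donor T cells were sorted as H-2Kb+TCRβ+CD4+ or CD8+ cells on day 6 after hematopoietic cell transplantation (HCT). In the study, STAT3-/- T cells caused only mild, reversible acute graft-versus-host disease, while WT and STAT3-/-PD-1-/- T cells caused lethal disease. In comparisons with STAT3-/- cells, donor genotype and disease in the recipient thus cannot be told apart. Each library combined the cells of 3 recipients, mouse ages were not given in the sources used here, and the p-values below measure the spread between such pools.

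Chemokine receptors are G protein-coupled receptors of the leukocyte surface. They bind small secreted chemokines, signal mainly through the inhibitory Gi proteins, and direct crawling, arrest on endothelium and entry into tissue. Different receptors serve different destinations: CCR2, CXCR3 and CXCR6 are typical of effector T cells in inflamed tissue, liver included, CX3CR1 of cytotoxic cells in the vessels, CXCR5 of cells bound for B cell follicles, CCR4 of skin-homing, type 2 and regulatory T cells, CCR9 of the small intestine, GPR15 of the colon, and CXCR4 of bone marrow.

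The libraries held between 21676125 and 24551477 counted reads, with a median of 23442480. Levels are given as CPM, the counts of a gene relative to the size of its library, after scaling of all 12 libraries by trimmed means (TMM). The sorted subset matched its label in every library, with Cd4 between 1242 and 1887 CPM in CD4+ libraries and at most 2.73 CPM in CD8+ libraries. Stat3, counted over the whole gene with its undeleted exons, was at 418 ± 69.6 CPM (SD, n = 2) in WT, 152 ± 17.1 CPM in STAT3-/- and 188 ± 43.9 CPM in STAT3-/-PD-1-/- cells of the CD4+ subset. The difference passed the test for STAT3-/-PD-1-/- against WT cells (adjusted p = 0.0180, from the quasi-likelihood test of edgeR after Benjamini-Hochberg correction, as are all adjusted p-values unless another tool is named) and not for STAT3-/- against WT cells (adjusted p = 0.0550), although the libraries of these groups did not overlap. In the CD8+ subset Stat3 was at 391 ± 9.01 CPM in WT, 142 ± 9.39 CPM in STAT3-/- and 194 ± 57.5 CPM in STAT3-/-PD-1-/- cells. The difference between STAT3-/- and WT cells did not pass there either (log2 fold change -1.46, adjusted p = 0.108). Pdcd1, which encodes PD-1, was at 241 ± 8.05 CPM in WT and 40.6 ± 20.6 CPM in STAT3-/-PD-1-/- cells of the CD4+ subset (adjusted p = 0.00566), and at 342 ± 48.5 and 79.6 ± 19.8 CPM in the CD8+ T cells (adjusted p = 0.00243). Reads were thus still counted over Pdcd1 in the cells labelled PD-1-/-, with at least 655 in each library, and which of its exons the deleted allele keeps is not given in the sources used here.

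Loss of both STAT3 and PD-1 went with lower transcripts of Ccr2 and Cxcr6 in both subsets, and of Cxcr5 and Gpr15 in CD4+ T cells and Cxcr3 and Cx3cr1 in CD8+ T cells, while Ccr4 was higher in CD8+ T cells. With WT CD4+ T cells as the reference, 4 of the 9 receptors changed in STAT3-/-PD-1-/- cells and all 4 fell, against 12.9% of all genes tested that changed in either direction. Among CD8+ T cells, 4 fell and 1 rose, against 17.2% of all genes. When STAT3-/-PD-1-/- cells were set against STAT3-/- cells, 4 receptors fell in CD4+ T cells (11.1% of all genes changed) and 6 fell and 1 rose in CD8+ T cells (16.8% of all genes changed). Gpr15, 1 of those 6, passed the filter on low counts in CD8+ T cells through the STAT3-/- libraries, so its call there was largely fixed by that filter. STAT3 deletion alone changed 1 receptor, Cxcr5, in CD4+ T cells (0.334% of all genes changed), and 0 in CD8+ T cells (0.0583% of all genes changed). Stat3 itself was not called in either of these comparisons by edgeR. For STAT3-/- against WT in CD8+ T cells, 4 receptors had an unadjusted p under 0.05 by edgeR, as did 1315 of all 12002 genes tested. DESeq2 also called 0 receptors there, while it called 210 of all genes where edgeR called 7. The 9 receptors had a median log2 fold change of -0.59 in CD4+ and -1.11 in CD8+ T cells for STAT3-/-PD-1-/- against WT, where the medians of all genes tested were -0.01 and -0.00. Each genotype entered 2 of the 3 comparisons of its subset, so these comparisons share libraries. In bulk RNA, fewer receptor-bearing cells and less RNA per cell cannot be told apart.

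**Figure D1:**
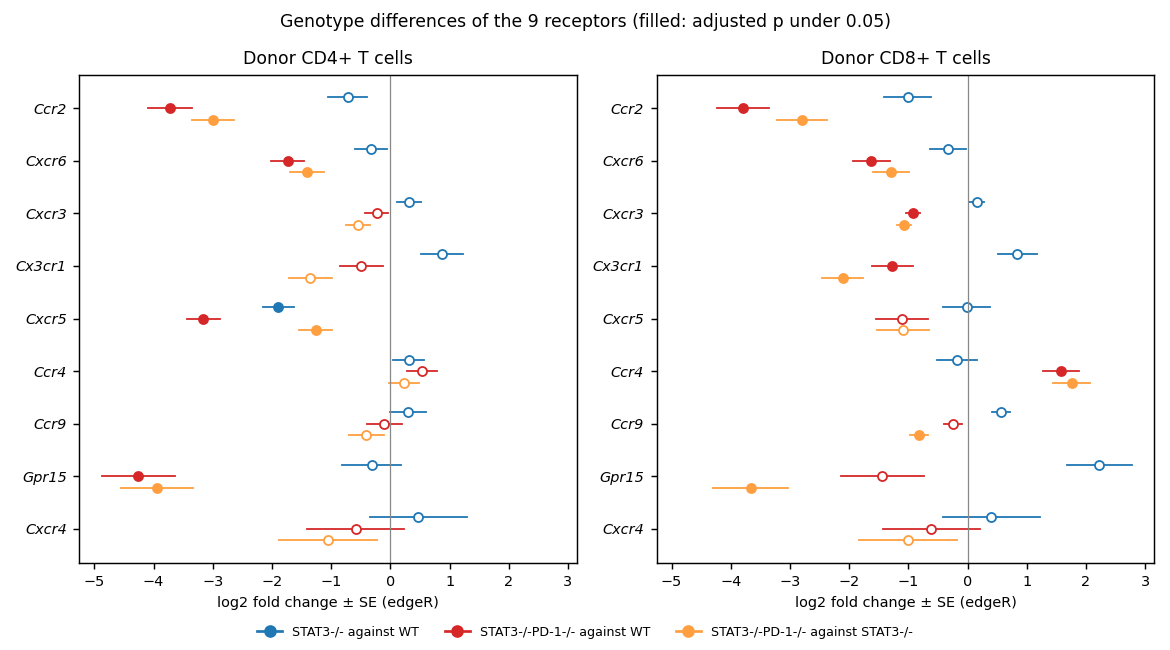
Log2 fold change of each receptor between genotypes in CD4+ and CD8+ T cells, with bars of 1 standard error from the edgeR fit and filled symbols for an adjusted p under 0.05. In the comparisons with STAT3-/-PD-1-/- cells, Ccr2 lies between -3.80 and -2.79 in all 4, and Ccr4 stands to the right of 0 with a filled symbol in the CD8+ comparisons.

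Library 2 of the STAT3-/-PD-1-/- group weighed heavily on these counts. Without it, the receptors called against WT were 2 in CD4+ and 1 in CD8+ T cells, and the loss ran through all genes, of which 63 instead of 1538 and 112 instead of 2066 were then called. Against STAT3-/- cells 0 receptors were called in either subset, beside 0 instead of 1324 of all genes in CD4+ and 2 instead of 2017 in CD8+ T cells. Without library 1 of STAT3-/-PD-1-/- cells, 2 receptors were called against STAT3-/- in CD4+ T cells (65 of all genes) and 4 in CD8+ T cells (1113 of all genes). Without library 1 of WT, 3 were called in STAT3-/-PD-1-/- CD8+ T cells (1093 of all genes), and without library 2 of STAT3-/- 4 were called against STAT3-/- in CD8+ T cells (454 of all genes). With 2 libraries a group, leaving out 1 leaves a single library that is assumed to vary like the other groups. In the labels and file headers the libraries numbered 1 and those numbered 2 carry separate runs of sample numbers, so values were also read within each number. Between STAT3-/-PD-1-/- and WT, the log2 ratio of Ccr2 was -3.43 among libraries 1 and -4.25 among libraries 2 of CD4+ T cells, and -3.10 and -4.84 in the CD8+ subset. For Cxcr6 these ratios were -1.50 and -2.14, and -1.04 and -2.37. Every receptor called between these genotypes kept its direction within both numbers.

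Per kilobase of exon, Cxcr6 was the most abundant of the 9 receptors in every group, at a mean of 392 CPM per kb in WT CD4+ T cells and 98.4 CPM per kb in STAT3-/-PD-1-/- CD8+ T cells, and in both STAT3-/-PD-1-/- groups its libraries overlapped those of Cxcr3. Ccr2 followed in WT CD4+ T cells at 136 CPM per kb, overlapping Cxcr3 at 115 CPM per kb. The lowest place went to Ccr4 in WT CD4+ T cells (2.96 CPM per kb) and to Gpr15 in STAT3-/-PD-1-/- CD4+ T cells (0.379 CPM per kb), where its libraries overlapped those of Cxcr5. Ccr2 made up 17.6% and 18.4% of the summed level per kb of the 9 receptors in the WT CD4+ libraries and 3.77% and 2.86% in the STAT3-/-PD-1-/- CD4+ libraries.

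**Figure D2:**
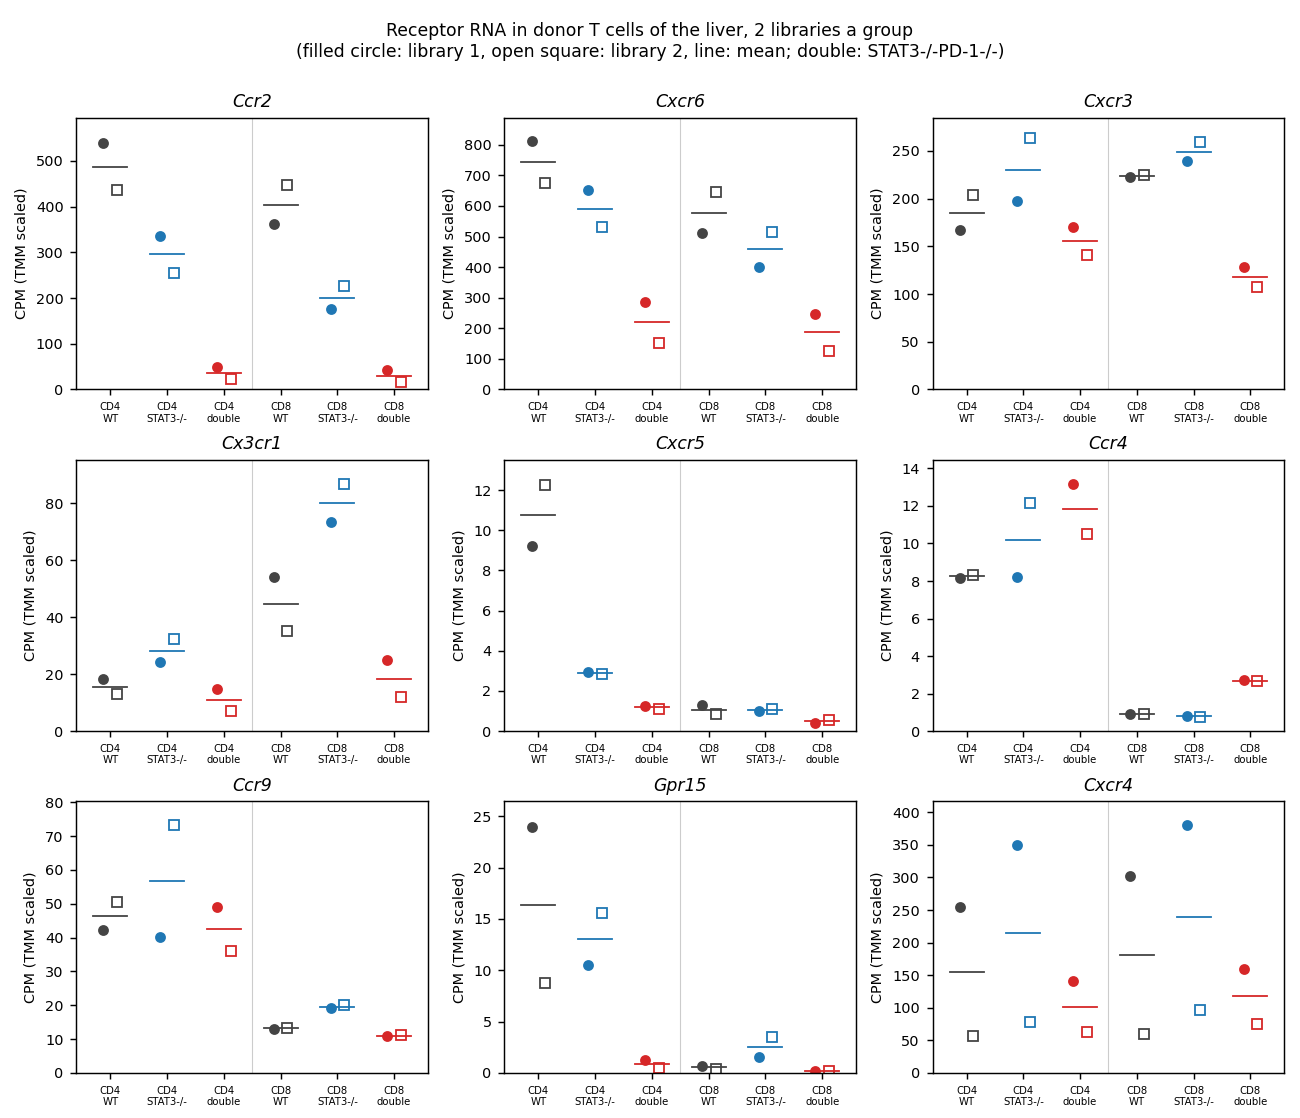
CPM of the 9 receptors in all 12 libraries, 1 panel per gene with its own vertical axis, filled circles for library 1, open squares for library 2 and lines for group means; "double" stands for STAT3-/-PD-1-/-. Ccr2 and Cxcr6 are lowest in the 4 STAT3-/-PD-1-/- libraries, and the library 1 symbols of Cxcr4 lie above the library 2 symbols in all 6 groups.

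Ccr2 (chr9:124102183-124109140, plus strand, mm10) encodes the receptor for the monocyte-attracting chemokine CCL2 and its relatives. In CD4+ T cells it was at 539.6 and 436 CPM in WT, 337 and 255 CPM in STAT3-/-, and 50.1 and 23 CPM in STAT3-/-PD-1-/- libraries. In CD8+ T cells it was at 361 and 446 CPM in WT, 175 and 227 CPM in STAT3-/-, and 42.3 and 15.6 CPM in STAT3-/-PD-1-/- libraries. Within each subset the 3 genotypes did not overlap, with WT the highest and STAT3-/-PD-1-/- the lowest. The levels in STAT3-/-PD-1-/- cells were 13.2-fold below WT in CD4+ (log2 fold change -3.72, SE 0.37, adjusted p = 0.00321) and 13.9-fold below WT in CD8+ T cells (-3.80, SE 0.44, adjusted p = 0.00483). They were 8.01-fold below STAT3-/- in CD4+ (SE 0.36 on the log2 scale, adjusted p = 0.00728) and 6.91-fold below it in CD8+ T cells (-2.79, SE 0.42, adjusted p = 0.00960). The smaller differences between STAT3-/- and WT cells did not pass the test, with log2 fold changes of -0.72 in CD4+ (adjusted p = 0.516) and -1.01 in CD8+ T cells (adjusted p = 0.421). Without library 2 of STAT3-/-PD-1-/- cells, the comparisons with STAT3-/- gave an adjusted p of 0.0742 for the CD4+ and 0.0558 for the CD8+ subset. Of the 51-base stretches in Ccr2 transcripts, 1.86% also occur on the same strand in transcripts of other genes.

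Cxcr6 (chr9:123806477-123811754, plus strand) encodes the receptor for CXCL16, a transmembrane chemokine displayed on the liver sinusoids. Its transcripts were at 811 and 674 CPM in WT, 652 and 529.7 CPM in STAT3-/-, and 287 and 153 CPM in STAT3-/-PD-1-/- CD4+ libraries. The CD8+ libraries held 510.4 and 645 CPM in WT, 402 and 514 CPM in STAT3-/-, and 248 and 125 CPM in STAT3-/-PD-1-/- cells. All 4 STAT3-/-PD-1-/- libraries lay below the other 8, while WT and STAT3-/- libraries overlapped in CD8+ T cells. Cxcr6 was 3.33-fold lower in STAT3-/-PD-1-/- than in WT CD4+ T cells (log2 fold change -1.74, SE 0.28, adjusted p = 0.0106) and 3.09-fold lower in CD8+ T cells (-1.63, SE 0.31, adjusted p = 0.0160). Relative to STAT3-/- the fall was 2.66-fold in CD4+ (adjusted p = 0.0251) and 2.45-fold in CD8+ T cells (adjusted p = 0.0319). None of these 4 calls held without library 2 of the STAT3-/-PD-1-/- group, where the adjusted p lay between 0.0707 and 0.141, and the last also failed without library 2 of STAT3-/- CD8+ T cells (adjusted p = 0.0998). The gene lies wholly within the span of Fyco1, which runs on the other strand, but none of its 51-base stretches occurs in a Fyco1 transcript.

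The stretch upstream of Cxcr6 is shown because the gene is the most abundant of the 9 and fell in both subsets, and that upstream of Ccr4 because Ccr4 alone was higher in STAT3-/-PD-1-/- cells with a passed test. Both come from RefSeq starts on GRCm38.p6, run 5′ to 3′ on the gene's strand, and leave out annotated exons; 8 of the 9 receptors, all but Cxcr5, were matched in the promoter table used. For Cxcr6 it is chr9:123806227-123806474, plus strand, from base -250 to -3 before the start, with capitals for the RUNX core TGTGGT read on the other strand (ACCACA). For Ccr4 it is chr9:114496563-114496794, minus strand, from base -250 to -19, with capitals for a match to the AP-1 motif TGANTCA.
Cxcr6: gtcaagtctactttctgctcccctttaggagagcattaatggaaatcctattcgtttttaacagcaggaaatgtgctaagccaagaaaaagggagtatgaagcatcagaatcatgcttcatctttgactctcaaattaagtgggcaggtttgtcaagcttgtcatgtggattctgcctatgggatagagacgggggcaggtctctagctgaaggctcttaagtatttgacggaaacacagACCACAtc
Ccr4: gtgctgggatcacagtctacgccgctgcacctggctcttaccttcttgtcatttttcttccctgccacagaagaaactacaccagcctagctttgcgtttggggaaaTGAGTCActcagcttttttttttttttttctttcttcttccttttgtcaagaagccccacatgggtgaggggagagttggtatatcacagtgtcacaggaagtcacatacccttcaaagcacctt
In the 250 bases before the start, the RUNX core was found upstream of Cxcr3, Cxcr6, Cx3cr1 and Gpr15, and TGANTCA upstream of Ccr4 and Gpr15. These windows were searched whole, with exons that GENCODE vM21 gives the same genes upstream of the RefSeq start; such exons cover 250 of the 250 bases for Cx3cr1, 198 for Gpr15, 122 for Cxcr3, 18 for Ccr4 and 2 for Cxcr6. Among 32851 RefSeq starts, 14% hold the RUNX core and 6.75% hold TGANTCA on either strand. The STAT motif TTCNNNGAA (7.02% of starts) and the T-box core TCACACC (3.33% of starts) were not among the letters of these windows for any of the 8 receptors. The 4 motifs were searched on both strands and do not overlap one another at these matches.

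Ccr9, Cxcr6 and Ccr2 belong to a row of chemokine receptor genes on chromosome 9, in which Ccr2 starts 335 kb after the start of Ccr9. The fall along this row was uneven. Ccr1, another receptor for inflammatory chemokines, was lower in STAT3-/-PD-1-/- than in WT CD4+ T cells (log2 fold change -2.09, adjusted p = 0.0146) at levels of at most 7.82 CPM. Fyco1, an adaptor for vesicle transport whose span holds Cxcr6, had a log2 fold change of -0.30 in CD4+ (adjusted p = 0.643) and -0.29 in CD8+ T cells (adjusted p = 0.597) for the same comparison. Ccr9, Ccr3 and the flanking gene Lztfl1 were not called against WT in either subset, and Xcr1 and Ccr1l1 were too low to be tested.

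**Figure D3:**
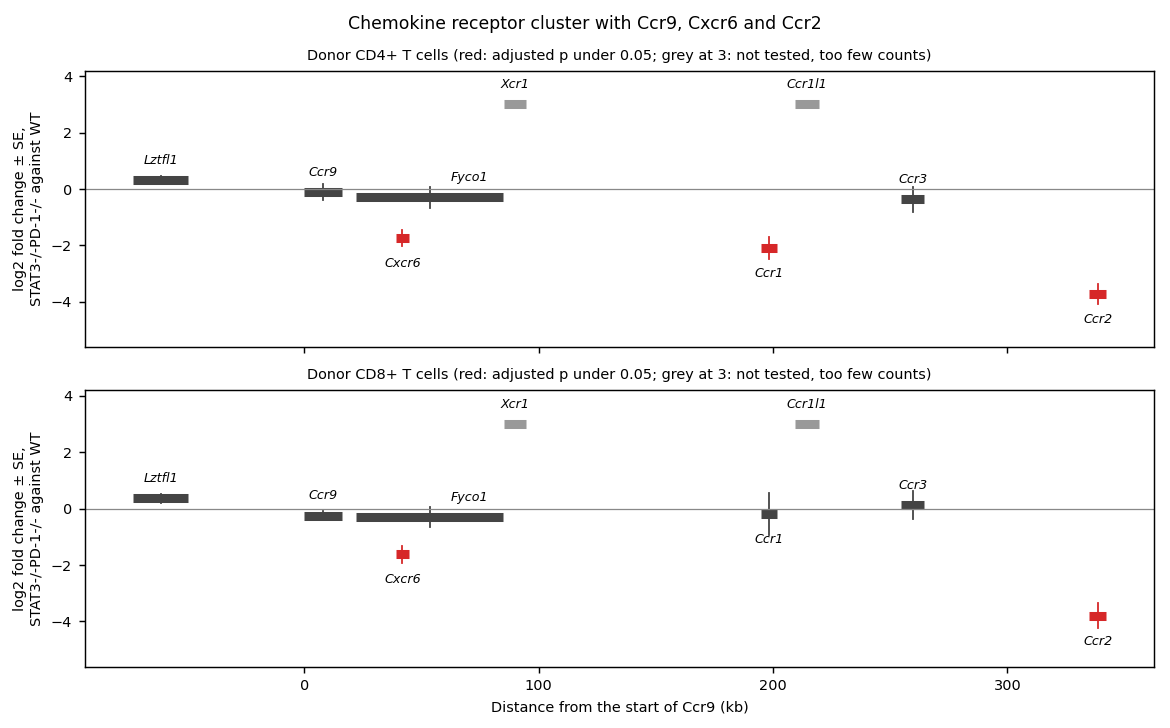
Log2 fold change of STAT3-/-PD-1-/- against WT for the genes of the chromosome 9 row from Ccr9 to Ccr2 and the neighbour before it, by distance in kb from the start of Ccr9, with thick bars over the span of each gene, thin bars of 1 standard error and red for an adjusted p under 0.05; grey bars stand for genes too low to be tested. Cxcr6, at 39.3 kb, and Ccr2, at 335 kb, lie below 0 in both subsets, while Fyco1 and Ccr9 lie near it.

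Cxcr3 (chrX:101731535-101734147, minus strand) encodes the receptor for the interferon-induced chemokines CXCL9, CXCL10 and CXCL11. Its level in CD4+ T cells was 167 and 204 CPM in WT, 197 and 263 CPM in STAT3-/-, and 170.3 and 140.5 CPM in STAT3-/-PD-1-/- libraries. For CD8+ T cells the values were 223 and 225 CPM in WT, 239.5 and 259 CPM in STAT3-/-, and 128 and 107 CPM in STAT3-/-PD-1-/- libraries. The 2 STAT3-/-PD-1-/- CD8+ libraries lay well below the other CD8+ libraries, whereas WT and STAT3-/-PD-1-/- CD4+ libraries overlapped. Cxcr3 in CD8+ T cells was 1.90-fold lower than in WT (log2 fold change -0.92, SE 0.13, adjusted p = 0.00679) and 2.11-fold lower than in STAT3-/- cells (-1.07, SE 0.13, adjusted p = 0.00477). Both calls were lost without library 2 of the STAT3-/-PD-1-/- group (adjusted p = 0.0579 and 0.0587). In CD4+ T cells the log2 fold changes were -0.23 (adjusted p = 0.492) and -0.55 (adjusted p = 0.121), of which the second, against STAT3-/- cells, passed in a fit of all 12 libraries (-0.57, adjusted p = 0.0445).

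Cx3cr1 (chr9:120048683-120068296, minus strand) encodes the receptor for fractalkine, a membrane-bound chemokine of endothelium. The CD8+ libraries held 54.1 and 35.3 CPM in WT, 73.4 and 86.8 CPM in STAT3-/-, and 24.9 and 12 CPM in STAT3-/-PD-1-/- cells. The CD4+ libraries held 18.2 and 13 CPM in WT, 24.1 and 32.4 CPM in STAT3-/-, and 14.9 and 7.03 CPM in STAT3-/-PD-1-/- cells. In both subsets the STAT3-/- libraries were the highest of the 3 genotypes and stood apart from the others. Cx3cr1 in STAT3-/-PD-1-/- CD8+ T cells was 4.32-fold lower than in STAT3-/- cells (log2 fold change -2.11, SE 0.35, adjusted p = 0.0119) and 2.41-fold lower than in WT cells (-1.27, SE 0.34, adjusted p = 0.0443). The comparison with STAT3-/- in CD4+ T cells stayed short of the threshold at -1.35 (SE 0.36, adjusted p = 0.0534), and it passed in 5 of the alternative fits besides those that left out a library, DESeq2 among them (adjusted p = 0.00341). The differences between WT and STAT3-/- cells, 0.86 in CD4+ and 0.84 in CD8+ T cells on the log2 scale, had adjusted p = 0.453 and 0.423. The CD8+ call against WT did not hold without library 1 of WT (adjusted p = 0.132) or library 2 of STAT3-/-PD-1-/- cells (adjusted p = 0.160) nor in a fit of all 12 libraries (adjusted p = 0.0520) or on log2(RPKM + 1) or log2(RPKM + 0.1) values with limma (adjusted p = 0.0583 and 0.0531), and that against STAT3-/- not without the latter (adjusted p = 0.0782).

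Cxcr5 (chr9:44511787-44526444, minus strand) encodes the receptor for CXCL13, which draws follicular helper T cells and B cells into follicles. It was the 1 receptor of the 9 that changed with STAT3 deletion alone. CD4+ libraries held 9.23 and 12.3 CPM in WT, 2.92 and 2.85 CPM in STAT3-/-, and 1.26 and 1.11 CPM in STAT3-/-PD-1-/- cells. The 3 genotypes formed 3 steps with no overlap. The first step, WT to STAT3-/-, was 3.72-fold (log2 fold change -1.90, SE 0.26, adjusted p = 0.0413), the second, STAT3-/- to STAT3-/-PD-1-/-, was smaller (-1.26, SE 0.29, adjusted p = 0.0343), and both together were 8.93-fold (-3.16, SE 0.28, adjusted p = 0.00250). The first step lost its call without any 1 of the 6 CD4+ libraries, with adjusted p from 0.0679 to 0.201, with only the 4 libraries compared (adjusted p = 0.147), or on log2(RPKM + 0.1) values with limma (adjusted p = 0.0576). The second lost its call without any 1 of the 4 libraries compared, with adjusted p from 0.0649 to 0.221, with only those 4 (adjusted p = 0.0530), or on log2(RPKM + 1) values (adjusted p = 0.0684). In CD8+ T cells Cxcr5 was at 1.29 and 0.839 CPM in WT, 0.993 and 1.10 CPM in STAT3-/-, and 0.398 and 0.571 CPM in STAT3-/-PD-1-/- libraries, of which the last rest on 9 and 14 counts. No CD8+ comparison passed the test, and STAT3-/-PD-1-/- against WT had a log2 fold change of -1.11 (adjusted p = 0.122), which passed in a fit of all 12 libraries (adjusted p = 0.0478).

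Genes of the follicular helper program were read in the same comparison. From a list of 9 follicular helper markers that includes Cxcr5 and Pdcd1, 8 were tested and 5 fell between WT and STAT3-/-PD-1-/- cells: Cxcr5, Bcl6, Icos, Pdcd1 and Tox2, where 12.9% of all genes changed. Bcl6, the transcription factor that defines the follicular helper lineage, had a log2 fold change of -2.20 (SE 0.33, adjusted p = 0.00839), from 10.6 to 18.7 CPM in WT to 2.99 to 3.30 CPM in STAT3-/-PD-1-/- libraries. The median log2 fold change of the 8 genes was -1.61. In CD8+ T cells 4 of 8 tested fell as well, with a median of -1.10, where 17.2% of all genes changed. Cxcr5 and Pdcd1 count toward this list although one is a receptor studied here and the other is the deleted gene.

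Ccr4 (chr9:114490316-114496544, minus strand) encodes the receptor for CCL17 and CCL22. It was the only receptor of the 9 that rose in a genotype comparison. CD8+ libraries held 0.890 and 0.919 CPM in WT, 0.820 and 0.777 CPM in STAT3-/-, and 2.74 and 2.65 CPM in STAT3-/-PD-1-/- cells. In counts these were 20 and 23, 19 and 19, and 62 and 65. The STAT3-/-PD-1-/- libraries stood above the other 4 by a wide margin compared with the gap within each pair. Ccr4 was 2.99-fold higher than in WT (log2 fold change 1.58, SE 0.31, adjusted p = 0.0175) and 3.39-fold higher than in STAT3-/- CD8+ T cells (1.76, SE 0.31, adjusted p = 0.0146). Neither call held when any 1 of the 4 libraries compared was left out, with adjusted p from 0.0656 to 0.0850 and from 0.0502 to 0.0889. Among CD4+ libraries, where Ccr4 was higher than in CD8+ T cells throughout, the values were 8.18 and 8.34 CPM in WT, 8.19 and 12.2 CPM in STAT3-/-, and 13.2 and 10.5 CPM in STAT3-/-PD-1-/- libraries, and the log2 fold change of 0.54 between the last and WT did not pass (adjusted p = 0.219).

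Ccr8, a receptor of skin T cells and regulatory T cells, also rose against WT in STAT3-/-PD-1-/- CD8+ T cells, and Ccr6, the receptor for CCL20, rose against STAT3-/- cells. Ccr8 was at 2.48 to 4.31 CPM in WT and 9.96 to 15.9 CPM in STAT3-/-PD-1-/- CD8+ libraries, a log2 fold change of 1.94 (adjusted p = 0.0128). Ccr6, at 0.0818 to 0.345 CPM in STAT3-/- and 1.77 to 2.33 CPM in STAT3-/-PD-1-/- CD8+ libraries, had a log2 fold change of 3.26 (adjusted p = 0.0136). In WT CD8+ libraries Ccr6 was at 0.934 and 0.959 CPM, and it was not called between STAT3-/-PD-1-/- and WT cells (log2 fold change 1.12, adjusted p = 0.140). Foxp3, which defines regulatory T cells, moved the other way from Ccr4 and Ccr8 in CD8+ T cells, from 13.7 to 23.8 CPM in WT to 7.29 to 8.94 CPM in STAT3-/-PD-1-/- libraries (log2 fold change -1.19, adjusted p = 0.0458).

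Ccr9 (chr9:123767211-123783457, plus strand) encodes the receptor for CCL25, the chemokine of small intestine and thymus. In CD8+ T cells its libraries lay close together within each genotype, at 12.9 and 13.3 CPM in WT, 19.1 and 19.9 CPM in STAT3-/-, and 10.9 and 11.1 CPM in STAT3-/-PD-1-/- cells. STAT3-/- was the highest and STAT3-/-PD-1-/- the lowest, with no overlap. The difference between these 2 passed the test (log2 fold change -0.82, SE 0.15, 1.76-fold lower, adjusted p = 0.0172), and that between WT and STAT3-/- did not (0.57, adjusted p = 0.292). The call was lost without any 1 of the 4 libraries compared (adjusted p from 0.0506 to 0.104) and in a fit of all 12 libraries (adjusted p = 0.0510). CD4+ libraries held 42.2 and 50.5 CPM in WT, 40.2 and 73.3 CPM in STAT3-/-, and 48.9 and 36.1 CPM in STAT3-/-PD-1-/- cells, and all 3 genotypes overlapped. On the other strand, 17.9% of the 51-base stretches of Ccr9 transcripts occur in other genes, and whether the counting used strand is not given in the sources used here.

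Gpr15 (chr16:58716643-58718872, minus strand) encodes a chemoattractant receptor that brings regulatory and effector T cells to the colon. CD4+ libraries held 24 and 8.76 CPM in WT, 10.5 and 15.6 CPM in STAT3-/-, and 1.21 and 0.477 CPM in STAT3-/-PD-1-/- cells. The WT libraries bracketed the STAT3-/- libraries, and both STAT3-/-PD-1-/- libraries lay far below. Gpr15 was 19.1-fold lower in STAT3-/-PD-1-/- than in WT CD4+ T cells (log2 fold change -4.26, SE 0.61, adjusted p = 0.00784) and 15.4-fold lower than in STAT3-/- cells (-3.94, SE 0.61, adjusted p = 0.0128). Without library 1 of STAT3-/-PD-1-/- CD4+ T cells these log2 fold changes were -5.05 and -4.73, and without library 2 they were -3.73 and -3.41. CD8+ libraries held 0.712 and 0.359 CPM in WT, 1.51 and 3.48 CPM in STAT3-/-, and 0.221 and 0.163 CPM in STAT3-/-PD-1-/- cells, the last pair from 5 and 4 counts. In counts, the WT libraries held 16 and 9 and the STAT3-/- libraries 35 and 85, and the gene was kept for testing in CD8+ T cells through the latter. The difference from STAT3-/- (log2 fold change -3.66, SE 0.63, adjusted p = 0.0134) is therefore given as a description, while STAT3-/- against WT was at 2.22 (adjusted p = 0.277) and STAT3-/-PD-1-/- against WT at -1.44 (adjusted p = 0.200). All 3 calls were lost without either of the STAT3-/-PD-1-/- libraries, with adjusted p from 0.0599 to 0.148. Cpox, on the other strand, holds 9.7% of the 51-base stretches of Gpr15.

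Genes that mark regulatory T cells, one of the T cell types in which Gpr15 and Ccr4 are found, fell in part. Of 8 such genes tested in CD4+ T cells, Foxp3, Ikzf2 and Tigit were lower in STAT3-/-PD-1-/- than in WT cells and 0 were higher, where 12.9% of all genes changed. In CD8+ T cells 1 of the 8, Foxp3, was lower, with a list median of -0.13 and 17.2% of all genes changed. In CD4+ T cells Foxp3 went from 21 to 30.7 CPM in WT to 3.38 to 3.42 CPM in STAT3-/-PD-1-/- libraries (log2 fold change -2.91, SE 0.31, adjusted p = 0.00395). The part of these cells in the receptor changes was not tested.

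Cxcr4 (chr1:128588199-128592299, minus strand) encodes the receptor for CXCL12, which holds cells in bone marrow. Its transcripts differed between library 1 and library 2 in every group. CD4+ libraries held 255 and 55.8 CPM in WT, 350.1 and 78.0 CPM in STAT3-/-, and 141 and 62.4 CPM in STAT3-/-PD-1-/- cells. CD8+ libraries held 303 and 59.5 CPM in WT, 381 and 97.2 CPM in STAT3-/-, and 159 and 75.7 CPM in STAT3-/-PD-1-/- cells. Library 1 was the higher in all 6 groups, by 4.56-fold in WT CD4+ and 5.08-fold in WT CD8+ T cells and by 2.26-fold and 2.11-fold in the STAT3-/-PD-1-/- groups. No comparison of Cxcr4 between genotypes or subsets passed the test without a block for the library number, and the log2 fold changes of STAT3-/-PD-1-/- against WT, -0.59 in CD4+ and -0.61 in CD8+ T cells, had standard errors of 0.82. With the number as a block, STAT3-/-PD-1-/- CD4+ T cells were lower than STAT3-/- cells (-0.78, SE 0.23, adjusted p = 0.0446), in a fit that called 3105 instead of 1324 of all genes. The gene lies 34.5 Mb from Pdcd1 on chromosome 1.

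**Figure D4:**
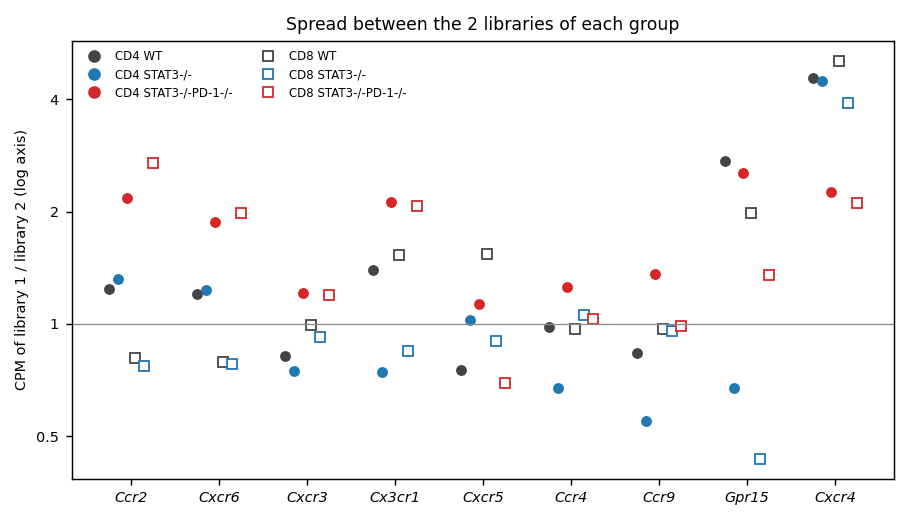
Ratio of the CPM in library 1 to that in library 2, on a log axis, for the 9 receptors in each of the 6 groups. Cxcr4 lies between 2.11 and 5.08 in every group, while Ccr2, Cxcr6 and Cx3cr1 exceed 1.8 in the STAT3-/-PD-1-/- groups and lie on both sides of 1 elsewhere.

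Cells of the 2 subsets were next compared within each genotype. In WT cells, 5 of the 9 receptors differed (10.5% of all genes did): Ccr4, Ccr9, Cxcr5 and Gpr15 were lower in CD8+ than in CD4+ T cells, and Cx3cr1 was higher. The log2 differences were -3.18 for Ccr4 (adjusted p = 5.80e-05), -1.82 for Ccr9 (adjusted p = 0.00166), -3.34 for Cxcr5 (adjusted p = 8.52e-05), -4.94 for Gpr15 (adjusted p = 0.00125) and 1.52 for Cx3cr1 (adjusted p = 0.0387). In STAT3-/- cells 5 receptors differed as well (9.62% of all genes), with Ccr4 at -3.67, Ccr9 at -1.54, Cxcr5 at -1.45, Gpr15 at -2.38 and Cx3cr1 at 1.504. In STAT3-/-PD-1-/- cells 2 differed (4.14% of all genes), Ccr4 at -2.13 (adjusted p = 0.000854) and Ccr9 at -1.95 (adjusted p = 0.00247). Ccr2, Cxcr6, Cxcr3 and Cxcr4 were not called between subsets in any genotype without a block. When the CD4+ and CD8+ libraries of a genotype and number were paired as 1 pool of recipients, Cxcr3 (-0.40, adjusted p = 0.0341), Gpr15 (-2.08, adjusted p = 0.0215) and Cx3cr1 (0.76, adjusted p = 0.00243) were also called in STAT3-/-PD-1-/- cells, where all genes called went from 511 to 1774. The Cx3cr1 call in WT cells was lost without any 1 of the 4 WT libraries or either STAT3-/- CD8+ library (adjusted p from 0.0525 to 0.241), and that in STAT3-/- cells without any 1 of the 4 STAT3-/- libraries (adjusted p from 0.101 to 0.169). In STAT3-/- cells Gpr15 lost its call without library 2 of CD4+ (adjusted p = 0.114) or library 1 of CD8+ T cells (adjusted p = 0.181), and Cxcr5 without either CD8+ library or library 2 of CD4+ T cells (adjusted p from 0.0508 to 0.0988).

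**Figure D5:**
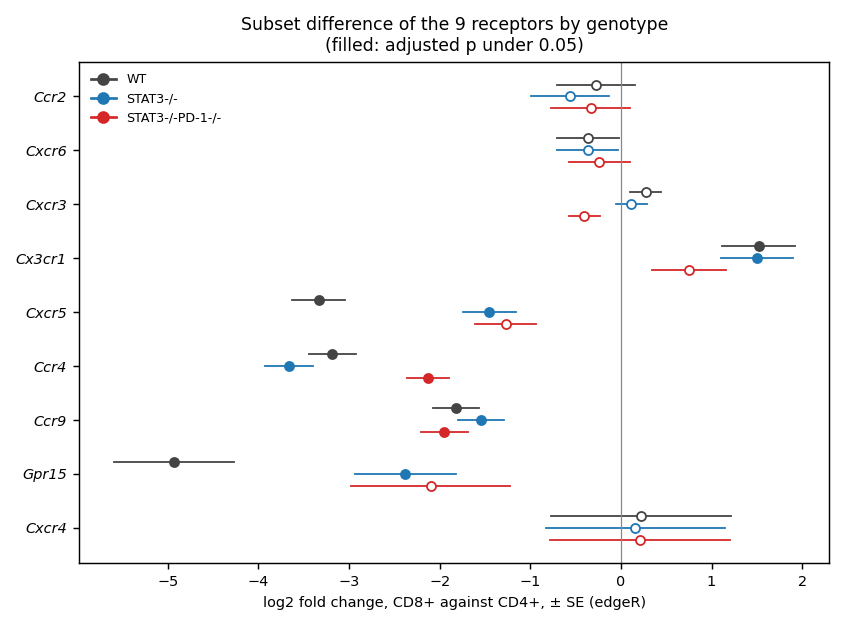
Log2 difference of CD8+ against CD4+ T cells for each receptor in the 3 genotypes, with bars of 1 standard error and filled symbols for an adjusted p under 0.05. Ccr4 and Ccr9 lie to the left of 0 with filled symbols in all 3 genotypes, and Cxcr5 and Gpr15 lie nearer 0 in STAT3-/- and STAT3-/-PD-1-/- than in WT cells.

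An interaction term asked whether the effect of a genotype was unequal in CD4+ and CD8+ T cells. Of the 9 receptors, 0 passed for STAT3-/- against WT (0% of all genes), 0 for STAT3-/-PD-1-/- against WT (0.00811% of all genes) and 0 for STAT3-/-PD-1-/- against STAT3-/- (0% of all genes). By edgeR, 2, 4 and 1 receptors had an unadjusted p under 0.05 in these interactions, and DESeq2 called 0 in each. For STAT3-/-PD-1-/- against WT, the log2 fold change of Cxcr5 was 2.07 higher in CD8+ than in CD4+ T cells (SE 0.45, adjusted p = 0.235), and that of Ccr4 was 1.05 higher (SE 0.34, adjusted p = 0.634). On log2(RPKM + 1) values with limma, a scale that compresses low levels, the difference for Cxcr5 did pass (1.55, adjusted p = 0.00410), as did that for STAT3-/- against WT (1.28, adjusted p = 0.0468). For Ccr2 and Cxcr6 the differences were -0.06 and 0.12 with SE 0.61 and 0.48. The calls in a single subset named above are thus not shown to be particular to that subset.

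The other genes through which chemokine receptors act, and those that share the work of placing T cells, were read from fixed lists. Of 14 ligand genes of these receptors, 6 were tested in CD4+ and 5 in CD8+ T cells. Between STAT3-/-PD-1-/- and WT cells 1 was called in each, where 12.9% and 17.2% of all genes changed. This was Cx3cl1, the gene of fractalkine, named here after its values were seen. Its counts were 0 and 1 in WT, 2 and 3 in STAT3-/-, and 50 and 74 in STAT3-/-PD-1-/- CD4+ libraries. In CD8+ libraries they were 0 in all 4 of WT and STAT3-/- and 30 and 49 in STAT3-/-PD-1-/- cells, or 1.33 and 2.00 CPM. Cx3cl1 passed the filter on low counts only through the STAT3-/-PD-1-/- libraries, so its call was largely fixed by that filter. The receptor gene Cx3cr1 was lower, and the ligand gene higher, in STAT3-/-PD-1-/- than in the other CD8+ libraries.

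Of 27 genes of receptor signalling and shut-off, 26 were tested, and 5 fell in CD4+ and 8 in CD8+ T cells between WT and STAT3-/-PD-1-/- cells, with 0 higher, where 12.9% and 17.2% of all genes changed in either direction. The median log2 fold changes of the list were -0.34 and -0.31, against -0.01 and -0.00 for all genes tested. Rgs10, which speeds the shut-off of Gi proteins, changed by -2.33 on the log2 scale in CD4+ (SE 0.25, adjusted p = 0.00404) and by -1.85 in CD8+ T cells (SE 0.26, adjusted p = 0.00731). Gng2, a G protein gamma subunit, changed by -0.75 in CD4+ (adjusted p = 0.0169) and -1.02 in CD8+ T cells (adjusted p = 0.00493), and Arrb2, the arrestin that desensitizes receptors, fell by 0.71 in CD4+ T cells (adjusted p = 0.0205).

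Of 20 other trafficking receptors and integrins, 9 of 19 tested fell in CD4+ and 12 of 18 tested fell in CD8+ T cells between WT and STAT3-/-PD-1-/- cells, where 12.9% and 17.2% of all genes changed in either direction. In both subsets 0 were higher, with medians of -0.65 and -0.74. Itgae, the CD103 chain that binds epithelial E-cadherin, went from 4.23 to 6.39 CPM to 0.663 to 0.776 CPM in the CD8+ libraries (-2.87, adjusted p = 0.00493). Itga1, a collagen-binding integrin of tissue-resident T cells, changed by -1.90 in CD4+ (adjusted p = 0.00368) and by -2.12 in CD8+ T cells (adjusted p = 0.000901). S1pr1, the receptor for exit from lymphoid organs, changed by -0.84 (adjusted p = 0.0294) and -0.87 (adjusted p = 0.0383) in CD4+ and CD8+ T cells. Against STAT3-/- cells, 7 of these genes fell in CD4+ and 12 in CD8+ T cells, where 11.1% and 16.8% of all genes changed.

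Among 20 transcription factors of homing programs, 11 fell and 1 rose in CD4+ T cells and 9 fell in CD8+ T cells between WT and STAT3-/-PD-1-/- cells, with medians of -0.86 and -0.64, where 12.9% and 17.2% of all genes changed. Stat3 counts toward this list although it is a deleted gene, and it was 1 of the 11 that fell in CD4+ T cells. Against STAT3-/- cells 7 of the factors fell and 1 rose in CD4+ and 3 fell in CD8+ T cells, where 11.1% and 16.8% of all genes changed. Tcf7, which keeps T cells in a memory-like state, fell by 2.89 against WT in CD4+ T cells (SE 0.24, adjusted p = 0.00208). Maf, a factor of follicular helper and interleukin-10-producing cells, fell by 2.30 against WT in CD8+ T cells (SE 0.19, adjusted p = 0.00226). Eomes, a T-box factor of cytotoxic cells, was the 1 that rose against WT in CD4+ T cells (log2 fold change 1.40, adjusted p = 0.0158). Tbx21, whose product T-bet drives Cxcr3, had log2 fold changes against WT of -0.01 in CD4+ (adjusted p = 0.993) and -0.25 in CD8+ T cells (adjusted p = 0.704). From 17 other chemokine receptor genes, 9 were tested in CD4+ and 10 in CD8+ T cells; between WT and STAT3-/-PD-1-/- cells 2 fell in the former, Ccr1 among them, and in the latter 1 fell and 1, Ccr8, rose.

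The genes whose levels most resembled each receptor were searched among 8606 genes over the 12 libraries, by Pearson correlation of log2 CPM after centring each subset on its mean; the libraries share genotype and library number. Among the 3 nearest of Ccr2 were Tspan14 (r = 0.988), a tetraspanin, and Cxcr6 (r = 0.988), and among those of Cxcr6 were Ccr2 and Tspan14 (r = 0.985). The likest of Cxcr4 were Tnfaip3 (r = 0.981), Ets2 (r = 0.975) and Dusp5 (r = 0.975), of which Tnfaip3 encodes the inhibitor A20 of NF-κB signalling and Dusp5 a phosphatase of the kinase ERK. For Cx3cr1 the nearest were Slc27a4 (r = 0.988), Lrrc61 (r = 0.986) and Klf3 (r = 0.982), a zinc-finger factor. Gpr15 was nearest to Iqgap2 (r = 0.982), Cxcr3 to Sfxn3 (r = 0.974) and Cxcr5 to Grasp (r = 0.935), and the nearest of Ccr9 and Ccr4 were Setd1b (r = 0.934) and Tex2 (r = 0.928).

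Several of these receptors are also carried by myeloid and NK cells, so markers of other liver cells were read in the same libraries. The 16 monocyte and macrophage markers summed to 58.1 and 77 CPM in WT and 22.4 and 19.5 CPM in STAT3-/-PD-1-/- CD4+ libraries. In CD8+ libraries the sums were 99.0 and 108 CPM in WT and 26.2 and 26.4 CPM in STAT3-/-PD-1-/- cells. Like Ccr2, the sums were lower in STAT3-/-PD-1-/- than in WT cells. Between the WT CD4+ libraries, however, library 2 had the higher sum and the lower Ccr2 (436 against 539.6 CPM). Under 1 CPM were 14 of the 16 markers in library 1 and 7 in library 2 of WT CD4+ T cells. These numbers were 14 and 8 in WT CD8+ T cells and 14 in each STAT3-/-PD-1-/- library. The 10 of these markers tested had a median log2 fold change of -2.19 in CD4+ and -2.45 in CD8+ T cells. Called lower were 1 and 2 of them, where 12.9% and 17.2% of all genes changed. In the WT libraries most of the sum was Itgam, an integrin also carried by activated T cells. Itgam had log2 fold changes of -2.41 in CD4+ (adjusted p = 0.00398) and -3.21 in CD8+ T cells (adjusted p = 0.000901). Csf1r was at most 1.31 CPM, Adgre1 at most 0.622 CPM and Lyz2 at most 1.20 CPM in any library, while the mean of Ccr2 went from 488 to 36.5 CPM in CD4+ and from 404 to 28.9 CPM in CD8+ T cells. Cd68, a lysosomal protein abundant in macrophages, was not near 0. It went from 28.9 and 29.1 CPM in WT to 16.9 and 18.3 CPM in STAT3-/-PD-1-/- CD8+ libraries (log2 fold change -0.71, adjusted p = 0.0154) and had a log2 fold change of 0.18 in CD4+ T cells (adjusted p = 0.640).
The 8 NK cell markers summed to 249.6 to 382 CPM in WT and 120 to 126 CPM in STAT3-/-PD-1-/- CD4+ libraries, and to 2099 to 2284 CPM and 486 to 638 CPM in CD8+ libraries. Most of it was Gzma, a granzyme of cytotoxic T cells as well, and Ncr1 was at most 0.424 CPM. For all the marker lists that follow, 12.9% of all genes changed in CD4+ and 17.2% in CD8+ T cells between WT and STAT3-/-PD-1-/- cells. Of 5 NK cell markers tested, Gzma, Klrb1c and Klre1 were lower in CD8+ T cells (log2 fold changes -2.00, -1.62 and -1.78), and in CD4+ T cells Gzma was lower (-1.63) and Fcer1g higher (1.29) in STAT3-/-PD-1-/- than in WT cells. Among B cell markers Ms4a1 was at 0 in every library, with Cd22 or Cd79b on top. With log2 fold changes against WT in parentheses here and below, Cd22 was higher in CD4+ (1.85) and Cd79b lower in CD8+ T cells (-1.18) with both deletions. The plasmacytoid dendritic cell gene Siglech was at 0 throughout. Of the 5 genes of its list that were tested, Irf8 (1.10), Tcf4 (1.05) and Bst2 (0.71) were higher in CD4+ T cells and Pacsin1 was lower in CD8+ T cells (-0.999). The hepatocyte gene Alb was at most 0.519 CPM, and 0 hepatocyte markers were called against WT. The endothelial list was led by Pecam1, with Kdr and Cdh5 below 1 CPM, and Egfl7 was higher in both subsets (2.35 and 2.37) at levels of at most 5.51 CPM. The T cell markers fell in part: Cd2 and Cd4 in CD4+ T cells, with log2 fold changes of -0.53 and -0.52, and 6 of 11 in CD8+ T cells, with Cd8a lower by a log2 fold change of -1.09 between WT and STAT3-/-PD-1-/- cells. The part of cells bearing these markers in the receptor changes was not tested.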

How the data were processed

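Liver donor T cells were sorted and sequenced as single 51-base reads in 12 libraries. The authors aligned reads to mm10 with STAR and deposited raw read counts per RefSeq gene from HTSeq-count, and beside them RPKM values, counts scaled by gene length and library size, which served only as an alternative. The labels also hold a growth protocol for adipogenic differentiation and a library kit other than that of the study's methods; neither was used, and which kit applies is not settled here. The 9 receptors, the gene lists and the tests were chosen with earlier results of these data known.

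Counts were fitted in R 4.3.3 with edgeR 4.0.16 (filterByExpr with a minimum count of 10, TMM, quasi-likelihood test, Benjamini-Hochberg adjustment over all genes tested). Genotypes were compared in 1 fit per subset (11959 and 12002 genes tested), and subsets and interactions in 1 fit of 12 libraries (12334 genes). A change means an adjusted p under 0.05. Alternatives were DESeq2 1.42.0, other filters and scaling, blocks, other sets of libraries, a 2-fold minimum, leaving out each library, and log2(RPKM + 1) or log2(RPKM + 0.1) with limma 3.58.1. In each of the 6 groups the 2 libraries differed by more than sampling noise. CD4+ and CD8+ libraries of 1 genotype and number were treated as 1 pool of recipients in a block, and their differences between numbers correlated at 0.59, 0.58 and 0.65. One CPM stood for 21.2 to 25.2 counts.

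Besides the 9 receptors, genes were named by rule: per list and comparison, the called genes with the largest changes among those whose log2 CPM averaged at least 3, the genes of the receptor row and the 3 nearest by correlation. The row is given from the neighbour before Ccr9 to Ccr2, a range set after positions were seen, since Ccrl2 lies 12.7 Mb away. Some genes that the rule names are not reported here. Genes named beyond this rule (Cx3cl1, Itgae, S1pr1, Eomes, Tbx21, Ccr1, Ccr6, Ccr8, the Foxp3 and marker values), the printed sequences and the motifs were chosen after values were seen. Shared 51-base stretches were counted in GENCODE vM21 transcripts.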

Additional observations from a re-analysis of the deposited data

How the results depend on the processing

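Ccr2 in STAT3-/-PD-1-/- against WT cells passed the threshold under all 15 alternatives in both subsets, with log2 fold changes from -4.38 to -3.27 in CD4+ and from -4.69 to -3.25 in CD8+ T cells, and so did Cxcr5 in CD4+ T cells. Leaving out 1 library each time, the number of the 9 receptors called was 0 (lowest) to 0 (highest) for STAT3-/- against WT in CD4+, 2 to 4 for STAT3-/-PD-1-/- against WT and 0 to 5 against STAT3-/- in CD4+, 0 to 0 for STAT3-/- against WT in CD8+, 1 to 5 and 0 to 7 for the STAT3-/-PD-1-/- comparisons in CD8+, 4 to 5, 2 to 5 and 2 to 2 for CD8+ against CD4+ in WT, STAT3-/- and STAT3-/-PD-1-/- cells, and 0 in the 3 interactions. In the same fits, the lowest number of all genes called was also below that with every library, in each genotype or subset comparison. The falls in these ranges are thus not particular to the receptors. With at least 10 counts in every library, 3 instead of 5 receptors differed between subsets in WT and 3 instead of 5 in STAT3-/- cells, since the filter removed Cxcr5 and Gpr15. With only the 4 libraries compared, 0 receptors changed with STAT3 deletion in CD4+ T cells, where 1 instead of 40 of all genes did. With each pool of recipients as a block, 5 instead of 2 differed between subsets in STAT3-/-PD-1-/- cells, where 1774 instead of 511 of all genes did.

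The labels give the libraries numbered 1 and those numbered 2 separate runs of sample numbers but do not say what the number stands for. Their differences correlated between genotypes at 0.63, 0.30 and 0.20 in CD4+ and 0.65, 0.16 and 0.06 in CD8+ T cells. With the replicate block, 6 instead of 4 receptors fell in STAT3-/-PD-1-/- against STAT3-/- CD4+ T cells, adding Cx3cr1 and Cxcr4. All genes called in that comparison went from 1324 to 3105. The block moved all genes called for STAT3-/- against WT in CD4+ T cells from 40 to 303, and for STAT3-/-PD-1-/- against WT from 1538 to 3104 in CD4+ and from 2066 to 2965 in CD8+ T cells.

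Of the 56 receptor comparisons with an unadjusted p of at least 0.05, 33 changed sign without some library. Gpr15 and Cxcr5 in CD8+ T cells rest on as few as 4 and 9 counts a library, and their fold changes are imprecise. The causes of these shifts were not tested.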
